A study of Homo sapiens with 32 samples.

Results

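The genes described here make selenoproteins or are selenoenzymes themselves. The 10 genes are SEPHS1, SEPHS2, PSTK, SEPSECS, SECISBP2 and EEFSEC, which handle selenocysteine, and TXNRD1, TXNRD2, GPX1 and GPX4, which encode enzymes with selenocysteine in the active site. Their members in the data are the 29 counted accessibility windows, of 212358 in all, whose centre lies within 500 bp of a GENCODE release 44 transcript start of one of these genes (build hg38). Each gene had 2 to 5 such windows, all of 1 width. Of the 29, 17 overlapped another member window and so shared reads with it, and 10 also had a start of another gene within 500 bp.

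The windows come from ATAC-seq, in which the transposase Tn5 cuts open chromatin and the sequenced fragments are counted per window. The cells were HEK_CloneZD29, a single clone of HEK293T, a human embryonic kidney cell line, engineered so that the transcription factor ZNF143 bears a degron tag that a drug can trigger. The dTAGV-1 group received 50 nM dTAGV-1 for 30 minutes, and the control group is titled DMSO, while the protocol text speaks of untreated cells. dTAGV-1 is a small molecule that brings a tagged protein to the VHL ubiquitin ligase for degradation. Both groups share the clone and its tag, so no untagged cells stand beside them, and ZNF143 protein was not analysed here. Of the 32 labelled samples in 4 groups of 8, counts were used for replicates 9 to 16, which gave 8 control and 8 dTAGV-1 libraries. Replicates 1 to 8 entered only as a list of peak summits. The labels do not say whether replicates were separate cultures, so p-values measure the spread between these libraries, which may be technical.

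Selenocysteine is built on its own transfer RNA and inserted at UGA codons that would otherwise end translation. The enzymes SARS1, PSTK and SEPSECS charge the tRNA with serine, phosphorylate the serine and exchange it for selenocysteine, with selenophosphate made by SEPHS2 as the selenium donor. SECISBP2 binds a hairpin in the 3′ untranslated region of selenoprotein messages, and EEFSEC, a dedicated elongation factor, brings the charged tRNA to the ribosome. ZNF143 was first known as the activator of the selenocysteine tRNA gene (TRU-TCA1-1), and the comparison asks what its loss does at the promoters of the genes around that tRNA.

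Stretches of hg38 follow because they hold the matches to ZNF143 sequences found near the pathway's starts, and capitals mark the match except where stated. The ZNF143 core is the run in capitals of the first stretch, searched with any base at its position 5 and A or C at its position 6. A second form of the ZNF143 site is the run in capitals of the ALKBH8 stretch, searched with any base at its positions 7 and 8. Both were searched on both strands, and positions count from 1 at the 5′ end.
TRU-TCA1-1 upstream, chr19:45478829-45478987, minus strand: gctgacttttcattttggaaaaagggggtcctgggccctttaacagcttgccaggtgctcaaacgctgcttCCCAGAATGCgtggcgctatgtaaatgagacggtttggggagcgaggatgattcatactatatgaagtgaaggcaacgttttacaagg
TRU-TCA1-1 gene and 48 bases before it, chr19:45478601-45478735, minus strand, capitals for a TATA-like run and the internal B box of genes read by RNA polymerase III: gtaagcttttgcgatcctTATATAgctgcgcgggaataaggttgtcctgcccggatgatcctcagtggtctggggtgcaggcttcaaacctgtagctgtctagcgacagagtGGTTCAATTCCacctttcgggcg
SEPHS1, chr10:13348041-13348070, plus strand: gcgggccgctCCCACAATGCaccgggcgcg
SEPSECS, chr4:25160425-25160454, plus strand, capitals for a near match: acacgacggaACCAGAATGCaactcgccgc
ALKBH8, chr11:107565730-107565758, plus strand: aaaactgcACTACATTTCCCAtgagcccg

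The selenocysteine tRNA gene is TRU-TCA1-1 (RefSeq, GRCh38.p14, chr19:45478601-45478687). Its exact core started 229 bases before the gene. In SEPHS1 the exact core lay 176 bp from the centre of a window inside the gene. The SEPSECS stretch departs from the core by C1A, counted from 1 at the 5′ end of the core, so it counts as a match only with 1 mismatch allowed. ALKBH8, which modifies the wobble base of tRNAs including that for selenocysteine, held the second form.

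Counts in windows summed to 2275856 to 11418578 in the control libraries (median 9202408) and to 3373219 to 13671039 in the dTAGV-1 libraries (median 9255837). The top decile of windows by count took 32.0% of counts in control replicate 12, 41.9% in dTAGV-1 replicate 11 and 39.1% in dTAGV-1 replicate 12, against 45.9% to 49.5% in the other 13 libraries. These libraries stood apart, and counts of calls are also given without replicates 11 and 12 of both groups. Windows at starts of the kidney and neural genes PAX2, EYA1, NEFL and NEFM, which HEK293T is known to express, were open and tested, and the window of LHX1 was too low to be tested. PTPRC, CD3E, ALB, APOA1 and MYH6, markers of blood, liver and heart, had no window.

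After 30 minutes of dTAGV-1, no member window passed the test for a change in accessibility. edgeR's quasi-likelihood test at an adjusted p of 0.05 called 0 of the 29 lower and 0 higher, and 0 reached an unadjusted p of 0.05. DESeq2 also called 0, and without replicates 11 and 12 of both groups edgeR called 0 again. Across the 38119 tested promoter windows, which are those within 500 bp of any transcript start, 0.561% were called lower and 0.00525% higher, or 0.567% in either direction. Over all 185040 tested windows 0.213% were called lower and 0.00108% higher. At these rates of adjusted calls, 29 windows of any kind would rarely hold a call, so the count of 0 alone does not set the members apart. By edgeR an unadjusted p under 0.05 was reached by 2.99% of tested promoter windows and 2.85% of all tested windows. The 0 of 29 at that level does not set the members apart either.

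The log2 fold change of dTAGV-1 against control ran from -0.20 to 0.42 over the 29 windows, with a median of 0.034 and standard errors of 0.13 to 0.29. The corresponding median was 0.011 over tested promoter windows and 0.0077 over all tested windows. Of the member windows 9 had a negative value (31.0%), against 46.1% of tested promoter windows. These signs are not independent, since 17 of the windows overlap another member window. They also depend on control replicate 12. Without it the most open windows of SECISBP2, TXNRD1 and GPX1 turned negative (-0.034, -0.058 and -0.034), and those of the other genes kept their sign. All 29 of the 95% intervals held 0, the lowest bound was -0.53 and the highest was 0.89. In the same edgeR fit the smallest decrease called in any window was -0.56 and the median called decrease was -0.95, both below the lower bound of every member window. The size of the smallest call depends on what the test can detect, so smaller decreases in member windows are not excluded. Single-library values of the groups overlapped in all 29. Control replicate 12 was the lowest control in 22 of the 29 and widened the control range there. The share of all tested windows with such an overlap was not computed, so this count does not set the members apart. Fewer cells with an open promoter and less opening per cell cannot be told apart in bulk libraries.

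**Figure D1:**
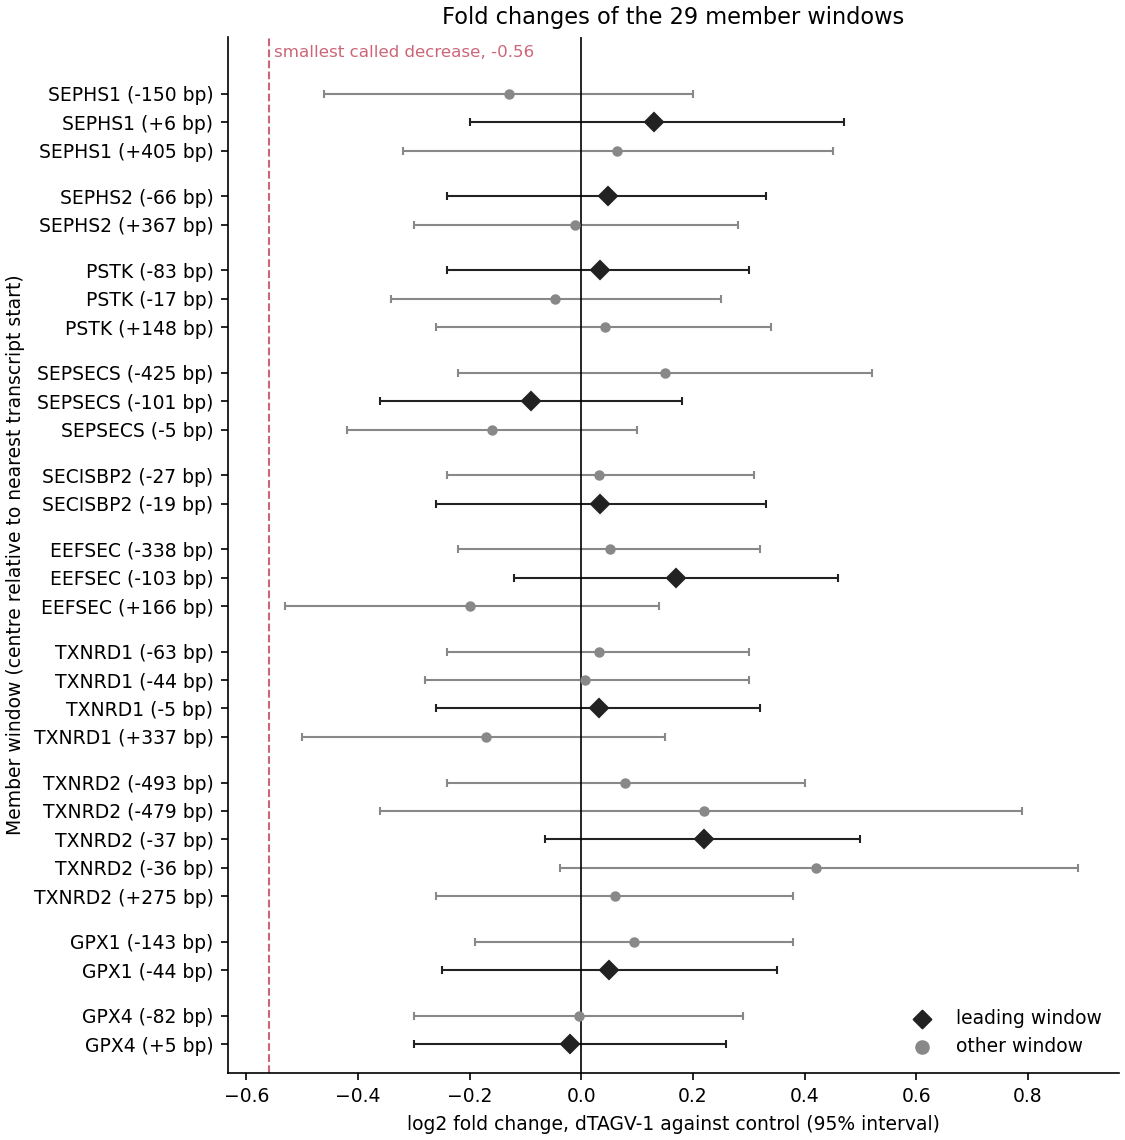
Log2 fold change of dTAGV-1 against control (x axis) for the 29 member windows (y axis, named by gene and by the position of the centre relative to the nearest start), with 95% intervals from edgeR and 8 libraries per group. Diamonds are the leading window of each gene and circles the other windows. Every interval crosses 0 and stays above the dashed line at -0.56, the smallest decrease called in any window of the same fit. That size depends on what the test can detect, so smaller decreases are not excluded.

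Each gene is described first by its leading window, the member window with the highest mean over all 16 libraries. Levels are log2 CPM, the count scaled to the library's size on a log2 scale, with library sizes adjusted by the trimmed mean of M values (TMM). The adjusted p by edgeR was 1.0 for all 29. The first step of the pathway is the making of selenophosphate. SEPHS2, the active selenophosphate synthetase and itself a selenoprotein, led with chr16:30445740-30446140, centred 66 bp upstream of a start. Its control libraries ran from 4.00 to 4.59 (median 4.24) and its dTAGV-1 libraries from 4.00 to 4.94 (median 4.24). The ranges overlapped almost throughout, with 1 high dTAGV-1 library, replicate 11. Its log2 fold change was 0.048 (SE 0.14, 95% interval -0.24 to 0.33), and without replicates 11 and 12 it was -0.015.

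SEPHS1, a paralogue without selenocysteine that does not make selenophosphate in known assays, led with chr10:13348087-13348487, which covers its 5′ untranslated region and lies near the start of the long noncoding RNA gene ENSG00000289585. Control values were 2.24 to 4.06 (median 3.60) and dTAGV-1 values 3.16 to 4.26 (median 3.60). The lowest value was control replicate 12, and above it the groups covered similar ranges. Their log2 fold change was 0.13 (SE 0.17, interval -0.20 to 0.47), and 0.056 without control replicate 12. The window inside the gene that holds the exact core, chr10:13347675-13348075, gave a log2 fold change of 0.064 (SE 0.19, interval -0.32 to 0.45). Its leading window does not contain that core.

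PSTK, the kinase that phosphorylates serine on the tRNA, led with chr10:122954098-122954498, at an upstream start that lies beside a start of C10orf88. Control libraries measured 4.07 to 4.81 (median 4.51) and dTAGV-1 libraries 4.17 to 4.76 (median 4.56). Replicate 11 was the lowest in both groups. The groups differed by a log2 fold change of 0.034 (SE 0.13, interval -0.24 to 0.30). At the other PSTK start, chr10:122980184-122980584 ran from 3.08 to 4.29 in control and from 3.04 to 4.28 in dTAGV-1, and differed by -0.047 (SE 0.15). Neither start passed the test, and the window just inside the gene gave 0.043.

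SEPSECS, the synthase that places selenocysteine on the tRNA, led with chr4:25160451-25160851, between its own start and those of PI4K2B and SEPSECS-AS1. The control range was 3.02 to 3.89 (median 3.63) and the dTAGV-1 range 3.36 to 3.74 (median 3.51). All dTAGV-1 values lay within the control range. On the log2 scale the difference was -0.090 (SE 0.13, interval -0.36 to 0.18). The window that holds the near match, chr4:25160167-25160567, gave -0.16 (SE 0.13, interval -0.42 to 0.10). There 4 dTAGV-1 libraries fell short of all controls and the other 4 overlapped with them.

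Next come the factors of decoding. SECISBP2, which binds the selenocysteine insertion hairpin, was among the most open members, with chr9:89318632-89319032, centred 19 bp before a start and inside an intron of longer transcripts. Control libraries ran from 4.33 to 5.43 (median 5.08) and dTAGV-1 libraries from 4.61 to 5.38 (median 5.20). The lowest were control replicate 12 and dTAGV-1 replicate 11. The log2 fold change of 0.034 (SE 0.15, interval -0.26 to 0.33) became -0.034 without control replicate 12.

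EEFSEC, the elongation factor, led with chr3:128153178-128153578, centred 103 bp upstream of a start. Its values were 3.14 to 4.39 in control (median 4.00) and 3.80 to 4.43 in dTAGV-1 (median 4.19). Of the 8 dTAGV-1 libraries 7 lay above the control median, but all were inside or just above the control range. EEFSEC thus had a log2 fold change of 0.17 (SE 0.14, interval -0.12 to 0.46). The EEFSEC window farthest into the gene, chr3:128153634-128154034, in an intron, had the lowest fold change of all members, -0.20 (SE 0.17, interval -0.53 to 0.14). It was picked out after its value was seen, and with the leading window it shows values of both signs around 1 start, neither of which passed the test.

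**Figure D2:**
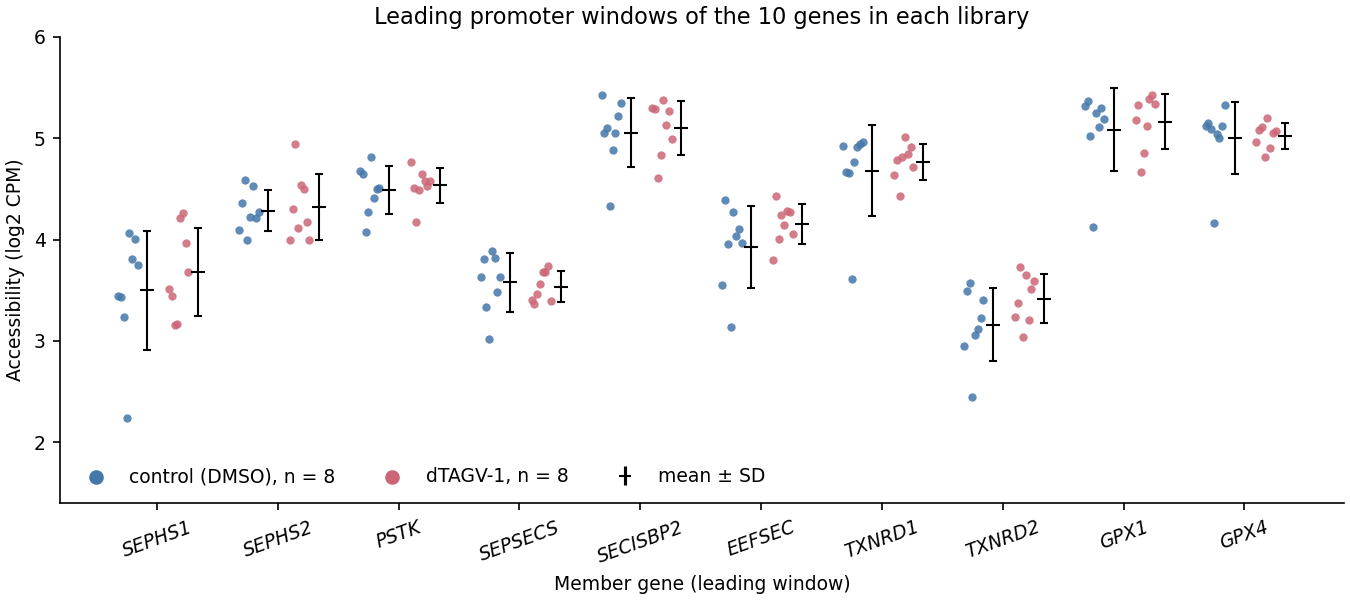
Accessibility in log2 CPM (y axis) of the leading window of each of the 10 genes (x axis), with 1 point per library, 8 control (blue) and 8 dTAGV-1 (red), and black bars for the mean ± SD. The groups overlap for every gene, and the low blue point in SEPHS1, TXNRD1, GPX1 and GPX4 is control replicate 12.

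The selenoenzymes fall into reductases and peroxidases. TXNRD1, the cytosolic thioredoxin reductase, led with chr12:104286720-104287120 over a 5′ untranslated region. Control values were 3.61 to 4.96 (median 4.84) and dTAGV-1 values 4.43 to 5.01 (median 4.79). Control replicate 12 lay far below the other controls, which ran from 4.66 to 4.96. For TXNRD1 the log2 fold change was 0.031 (SE 0.15, interval -0.26 to 0.32) with that library and -0.058 without it. The 3 other TXNRD1 windows gave 0.031, -0.17 and 0.0064.

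TXNRD2, the mitochondrial reductase, was the least open of the 10, with chr22:19941657-19942057, centred 37 bp upstream of a start. Its control libraries ran from 2.45 to 3.57 (median 3.17) and its dTAGV-1 libraries from 3.04 to 3.73 (median 3.44). Here too 7 of 8 dTAGV-1 libraries lay above the control median, within overlapping ranges. The log2 fold change of 0.22 was the largest among the leading windows (SE 0.14, interval -0.065 to 0.50). With the replicate number as a block in the fit it was 0.23 (unadjusted p = 0.0413 by edgeR), and the window was not called. The highest fold change of any member was at an internal TXNRD2 start, chr22:19881205-19881605, and was picked out after its value was seen. It had 0.71 to 1.69 in control (median 1.36), 0.44 to 2.37 in dTAGV-1 (median 1.72) and a log2 fold change of 0.42 (SE 0.23, interval -0.038 to 0.89). That window held 8 to 37 counts per library, so its interval was wide.

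GPX1, the abundant glutathione peroxidase, had the most open leading window, chr3:49358221-49358621, over its 5′ untranslated region. Control values were 4.12 to 5.37 (median 5.22) and dTAGV-1 values 4.67 to 5.43 (median 5.25). Apart from control replicate 12 the control libraries kept between 5.02 and 5.37. GPX1 had a log2 fold change of 0.050 (SE 0.15, interval -0.25 to 0.35), and -0.034 without control replicate 12.

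GPX4, the peroxidase that reduces lipid peroxides and holds back ferroptosis, led with chr19:1103799-1104199 over its 5′ untranslated region. The control range was 4.16 to 5.33 (median 5.10) and the dTAGV-1 range 4.81 to 5.20 (median 5.06). With control replicate 12 aside, the lowest control was at 5.00, inside the dTAGV-1 range. GPX4 gave a log2 fold change of -0.020 (SE 0.14, interval -0.30 to 0.26), and the second GPX4 window gave -0.0046.

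Across genes, leading windows spanned 3.16 to 5.09 log2 CPM in control means, while the differences between groups spanned -0.09 to 0.22 on the log2 scale. All windows have the same width, so their levels can be set side by side without a length correction. By control mean, the order of leading windows was GPX1 (5.09 ± 0.40 log2 CPM, SD, n = 8), SECISBP2 (5.05 ± 0.34), GPX4 (5.00 ± 0.36), TXNRD1 (4.68 ± 0.45), PSTK (4.49 ± 0.24), SEPHS2 (4.28 ± 0.20), EEFSEC (3.93 ± 0.40), SEPSECS (3.58 ± 0.29), SEPHS1 (3.50 ± 0.58) and TXNRD2 (3.16 ± 0.36). The PSTK value is for the start beside C10orf88, and the window at its other start had 3.96 ± 0.39, below SEPHS2. GPX1, SECISBP2 and GPX4 did not differ beyond the spread of their differences within libraries. GPX4 exceeded TXNRD1 by 0.32 ± 0.16 in the controls, and in 15 of all 16 libraries. EEFSEC exceeded SEPSECS by 0.35 ± 0.26, also in 15 of 16. SEPHS2 exceeded EEFSEC by 0.36 ± 0.33 in the controls, but in only 10 of 16 libraries. The neighbouring pairs TXNRD1 and PSTK, PSTK and SEPHS2, SEPSECS and SEPHS1, and SEPHS1 and TXNRD2 each lay closer than the SD of their difference. In that order, the first gene of the pair was the higher in 13, 13, 7 and 12 of 16 libraries.

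Against other promoters, the leading windows were open but not extreme. On edgeR's average scale the 29 members had a median of 3.62 log2 CPM, compared with 3.05 for tested promoter windows and 1.46 for all tested windows. GPX1 stood at percentile 92.9 of tested promoter windows, SECISBP2 at 92.3 and GPX4 at 91.5, while TXNRD2 stood at 57.7. Since a leading window is the highest of its gene, these percentiles are high by construction. The median G+C content was 65.8% for members and 62.8% for tested promoter windows.

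Accessibility was concentrated at the starts. The 15 member windows centred within 100 bp of a start had a median of 4.09 log2 CPM (1.45 to 5.12), and the 14 farther out had 2.77 (1.04 to 4.13). The fold changes had medians of 0.031 and 0.056 in these classes. The one window near a start with a low level was the internal TXNRD2 start named above. Summits of replicates 1 to 8 lay in 20 of the 29 windows, 19 of them within 100 bp of the centre. Among leading windows 8 of 10 held a summit, and those of EEFSEC and TXNRD2 did not.

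**Figure D3:**
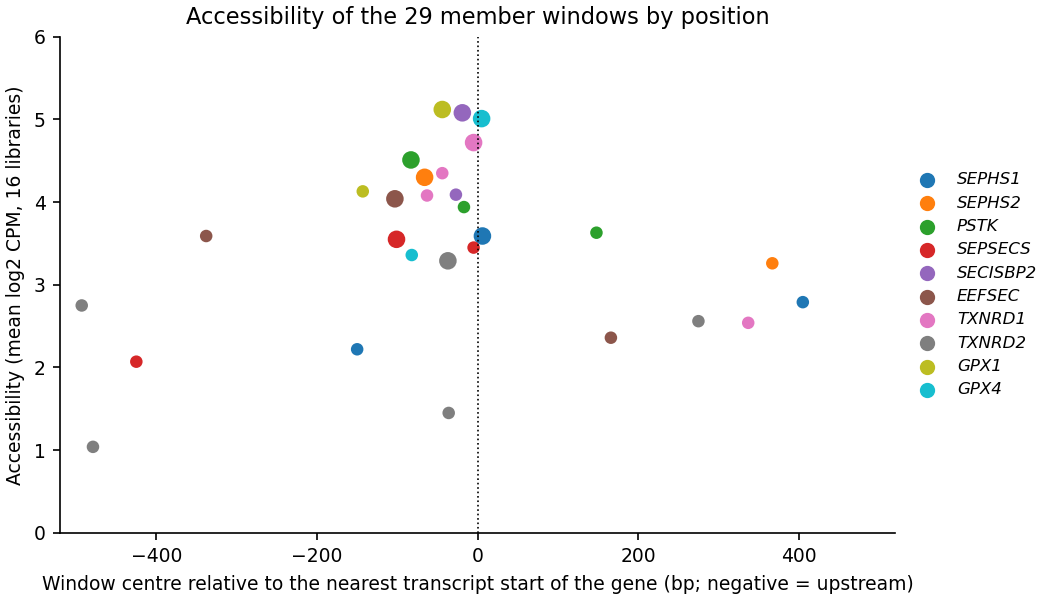
Mean accessibility over 16 libraries in log2 CPM (y axis) against the distance of the window centre from the nearest start of the gene in bp (x axis, negative is upstream), with 1 point per member window coloured by gene and larger points for leading windows. All leading windows lie within 103 bp of a start, and windows more than 100 bp away have a median of 2.77 against 4.09.

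Most of the spread between control libraries came from 1 library. Averaged over the 10 leading windows, control libraries ran from 3.53 to 4.44 (median 4.39) and dTAGV-1 libraries from 4.19 to 4.56 (median 4.37). The means were 4.27 ± 0.31 and 4.37 ± 0.13 (SD, n = 8). Without control replicate 12 the control range was 4.26 to 4.44, with a mean of 4.38 ± 0.068 (n = 7). That library was the lowest control in 9 of 10 leading windows and in 22 of 29 member windows, and dTAGV-1 replicate 11 or 12 was the lowest dTAGV-1 library in 7 of 10. These are the libraries with a small share of counts in the highest windows. They also had the smallest totals of counts, 2275856 in control replicate 12, 3373219 in dTAGV-1 replicate 12 and 4642812 in dTAGV-1 replicate 11. The part of that share or of depth in the fold changes was not tested.

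Exact ZNF143 matches were rare in promoter windows, among the members and in general. Within 100 bp of the centre, 0 of 29 member windows held the exact core on either strand, compared with 0.863% of tested promoter windows and 0.594% of all tested windows. At these rates 29 windows of any kind would rarely hold the core, so the count of 0 does not set the members apart. Over the whole window the core was in 1 of 29 (3.45%), against 1.36% of tested promoter windows. With 1 mismatch allowed the share was 5 of 29 (17.2%), against 10.3% of tested promoter windows, so near matches were common in both. The second form was present in 0 of 29 and in 453 tested promoter windows (1.19%), so this 0 does not set the members apart either. The second form was chosen as a search after the window of ALKBH8 had been seen. Its last 4 letters are also the first 4 of the core, so the forms can overlap. Of the 453 windows, 99 were called lower (21.9%) with a median log2 fold change of -0.33. Of 329 tested promoter windows with the core, 61 also held the second form. Among the 329, 30 were called lower (9.12%), so that share is not of the core alone. Of 37398 with neither, 99 were called lower (0.265%). Without replicates 11 and 12 of both groups the counts called lower were 213 with the second form, 66 with the core and 270 with neither. All 29 members fall in the class with neither form.

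Of the 2 windows counted at the selenocysteine tRNA gene, 1 covered the gene and the other lay upstream of it. The core upstream of TRU-TCA1-1, shown above, fell in the gap of 121 bases between them and was counted in neither. The window over the gene, chr19:45478415-45478815, had 3.70 to 4.63 in control (median 4.42) and 4.20 to 4.76 in dTAGV-1 (median 4.50). Its log2 fold change was 0.088 (SE 0.14, interval -0.19 to 0.36), with the groups overlapping. The window upstream, chr19:45478937-45479337, starts 20 bases beyond the core. It ran from 3.32 to 3.91 in control (median 3.46) and from 2.92 to 3.84 in dTAGV-1 (median 3.40), a log2 fold change of -0.21 (SE 0.14, interval -0.49 to 0.076). Neither passed the test, and accessibility at the core of this gene was not measured by the counted windows. An untranslated exon of ERCC1 (chr19:45478736-45478828) lies between the core and the gene. For comparison, the core was found in 423 of 35116 promoters of 300 bases in the RefSeq table (1.2%).

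**Figure D4:**
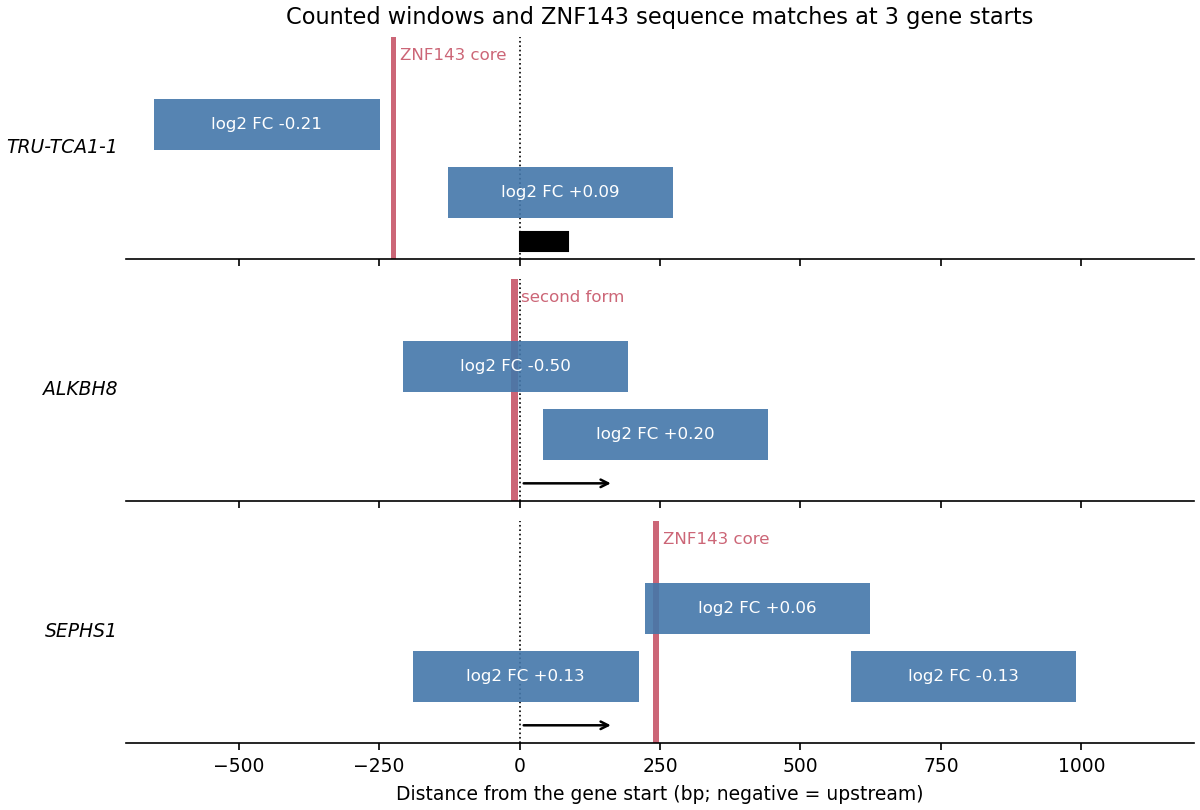
Counted windows (blue, with the log2 fold change of dTAGV-1 against control) and sequence matches (red) at TRU-TCA1-1, ALKBH8 and SEPHS1, by distance from the gene start in bp (x axis, negative is upstream); the black bar is the tRNA gene and arrows show the direction of transcription. The core of TRU-TCA1-1 falls between the windows, while the second form at ALKBH8 lies at the centre of the window with -0.50.

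ALKBH8 had the largest difference among the pathway genes listed beside the members. In its start window, chr11:107565543-107565943, control libraries ran from 2.45 to 4.27 (median 3.79) and dTAGV-1 libraries from 3.12 to 3.51 (median 3.33). The 8 dTAGV-1 values were thus lower than 7 of the 8 control values, and control replicate 12, at 2.45, was the lowest of the 16. ALKBH8 had a log2 fold change of -0.50 (SE 0.15, interval -0.80 to -0.21, unadjusted p = 0.00135), and it did not pass the adjusted threshold in edgeR (adjusted p = 0.413) or DESeq2 (adjusted p = 0.279). Without control replicate 12 the value was -0.59 with an adjusted p of 0.00555 by edgeR, and without replicates 11 and 12 of both groups it was -0.59 with an adjusted p of 0.000731. In the 15 other fits that each leave out 1 library it was -0.54 to -0.42, with adjusted p from 0.416 to 1.0. With all 16 libraries kept and the replicate number as a block, the ALKBH8 start window was called by edgeR (-0.51, adjusted p = 0.00207).

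A second ALKBH8 window, chr11:107565294-107565694, overlaps the first by 152 bases on the side of the gene. Its log2 fold change was 0.20 (SE 0.14, adjusted p = 1.0 by edgeR). Within a library, the start window minus the inner window was -0.63 to 0.86 in control (median 0.49) and -0.64 to 0.17 in dTAGV-1 (median -0.20). The start window was thus the higher in the middle control library and the lower in the middle dTAGV-1 library, with overlapping ranges.

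**Figure D5:**
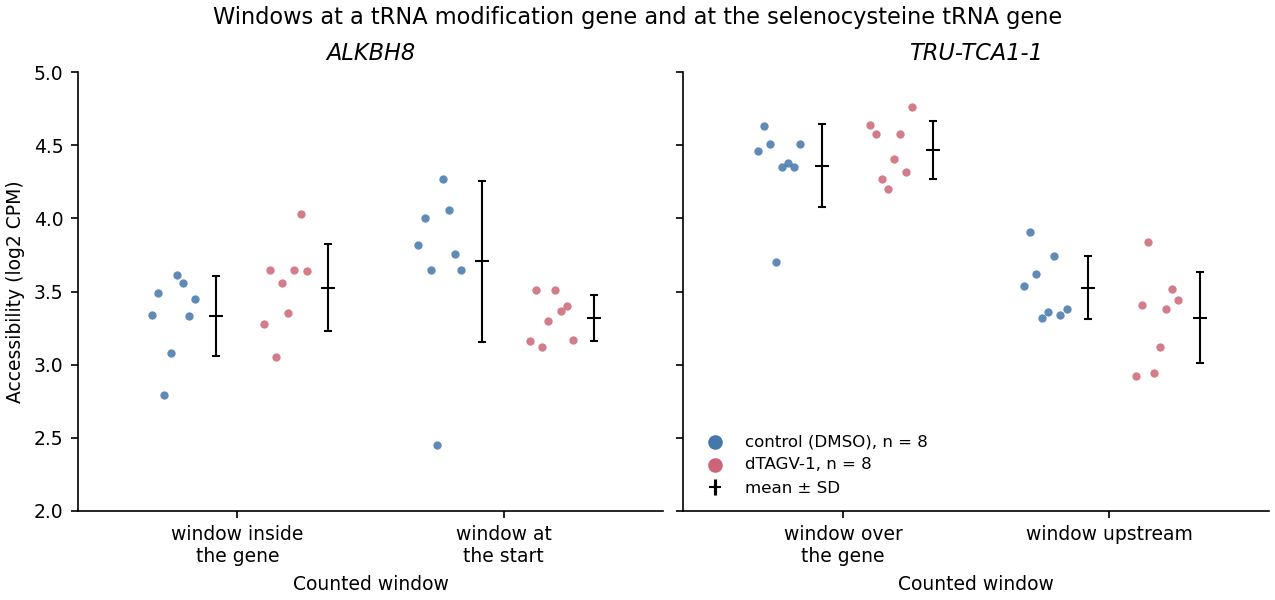
Accessibility in log2 CPM (y axis) of the ALKBH8 and TRU-TCA1-1 windows (x axis), with 1 point per library, 8 control (blue) and 8 dTAGV-1 (red), and black bars for the mean ± SD. At the start of ALKBH8 the dTAGV-1 libraries sit between 3.12 and 3.51, below all control libraries except the 1 at 2.45.

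Further lists cover the rest of the pathway. Of 7 other genes of selenocysteine handling, all had windows, and 0 of their 15 windows were called. They had a median log2 fold change of 0.044, and 1 reached an unadjusted p of 0.05, the ALKBH8 start. Next by p was TRU-TCA1-1. The core was found in 2 of the 15, at RPL30, a ribosomal protein known to bind the insertion hairpin, and at LRP8, a receptor that takes up SELENOP. RPL30 had a log2 fold change of -0.14 (SE 0.15) and the LRP8 window with the core by 0.097 (SE 0.13).

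Of 20 other selenoprotein genes 15 had windows, and GPX2, GPX6, DIO1, DIO2 and SELENOV had none. None of their 26 windows was called, and the median was 0.030. TXNRD3, a testis-enriched reductase, had the smallest p, in a window centred 333 bp inside the gene, with 0.34 (SE 0.16, unadjusted p = 0.0369 by edgeR, 6 of 8 dTAGV-1 libraries above the control median). Its more open window at the start gave 0.12 (SE 0.14). SELENON, an endoplasmic reticulum selenoprotein of muscle, followed with 0.33 (SE 0.19, unadjusted p = 0.0945 by edgeR). Of 18 thioredoxin and glutathione partners 17 had windows, 33 in all, with 0 calls, 0 at an unadjusted p of 0.05 and a median of 0.048. The smallest p values here also came from weaker windows away from the most open one. TXNIP, the inhibitor of thioredoxin, gave -0.28 (SE 0.18, unadjusted p = 0.124 by edgeR) in such a window and -0.046 (SE 0.15) in its most open window. The peroxiredoxin gene PRDX2 gave 0.26 (SE 0.20, unadjusted p = 0.198 by edgeR) and 0.078 (SE 0.14) in the same order. DESeq2 also called 0 windows in each of these lists. Without replicates 11 and 12 of both groups edgeR called 1 in all, the start of ALKBH8.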

How the data were processed

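Reads were processed by the authors with cutadapt 1.8.1, Bowtie2 2.4.4 and SAMtools 1.9 against hg38, per the submitters' processing notes. The peak caller, counting tool, Tn5 shift and any pooling are not given in the sources used here. The deposited count table holds raw counts per window for 16 libraries. Its q-value column and the score of the deposited summit list were taken as −log10 values of the authors' peak calling from their range, and only summit positions were used. The 10 genes, the 3 further lists and the motif were chosen with earlier results of these data known.

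Windows were fitted together with edgeR 4.0.16 in R 4.3.3: filterByExpr by group, TMM, glmQLFit and glmQLFTest, Benjamini-Hochberg over 185040 windows, threshold 0.05. Per-library log2 CPM used a prior count of 2. DESeq2 1.42.0 was an alternative. Scripts were tested on simulated data. Named were all members by their leading window, up to 2 genes per list with the smallest unadjusted p, and genes sharing a leading window; the extreme other members were picked after their values were seen. A further marker and a neighbouring gene are not reported here. Alternatives tried were size factors, no filter, the replicate block, left-out libraries, start distance and motif rules. Library totals limit precision at low windows. No 2 libraries of a group agreed within sampling noise (chi-square per degree of freedom 1.64 to 4.88).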

Additional observations from a re-analysis of the deposited data

Results flagged for a closer look

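Of 28 groups of 8 libraries at the leading, ALKBH8 and TRU-TCA1-1 windows, 7 had 1 library far from the others in log2 CPM (chance flags about 1 in 20 groups), and 6 of the 7 were control replicate 12. Control replicate 12 measured 2.24 at SEPHS1, with the other controls at 3.24 to 4.06. At TXNRD1 it measured 3.61, with the others at 4.66 to 4.96. At GPX1 it was at 4.12 (others 5.02 to 5.37) and at GPX4 at 4.16 (others 5.00 to 5.33). At the window over TRU-TCA1-1 it was at 3.70 (others 4.35 to 4.63), and at the ALKBH8 start at 2.45 (others 3.65 to 4.27). The remaining value was dTAGV-1 replicate 11 at PSTK, 4.17, with the other dTAGV-1 libraries at 4.49 to 4.76.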

How the results depend on the processing

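No member window was called under any alternative, including starts within 250 bp (21 windows) or 1000 bp (34 windows). Over 21 alternatives, 197 of 210 fold changes of leading windows kept their direction, 13 changed sign in 6 genes, and 0 were called. Without replicates 11 and 12 of both groups SEPHS2 was -0.015, PSTK -0.0036 and TXNRD1 -0.039. Leaving out 1 library gave PSTK -0.020 to 0.085, SECISBP2 -0.034 to 0.091, TXNRD1 -0.058 to 0.070, GPX1 -0.034 to 0.11, GPX4 -0.10 to 0.026 and SEPHS2 -0.051 to 0.093. With no change of sign it gave SEPHS1 0.038 to 0.21, EEFSEC 0.11 to 0.24, TXNRD2 0.17 to 0.27 and SEPSECS -0.14 to -0.043. The window over TRU-TCA1-1 (0.028 to 0.13), the window upstream of it (-0.27 to -0.14) and the inner ALKBH8 window (0.11 to 0.25) also kept their sign. Without replicates 11 and 12 of both groups the upstream TRU-TCA1-1 window was -0.25 (unadjusted p = 0.0452 by edgeR) and was not called. Over all windows, edgeR called 395 lower and 2 higher, DESeq2 504 and 4, and the fit without replicates 11 and 12 767 and 14. Leaving out 1 library gave 318 to 627 lower, the highest without control replicate 12, and 0 to 5 higher; the cause was not tested. With the replicate number as a block, 742 were lower and 11 higher, and ALKBH8 was called (-0.51, adjusted p = 0.00207 by edgeR). Same-numbered libraries deviated together with r of 0.0276 to 0.336, not above 0.1 for every number, and 5 of the 8 numbers matched best with their own. The labels do not say whether a number marks a shared batch, so whether these libraries form pairs was not settled. The main fit treated them as unpaired, and the block is an alternative. The core was in 1 member window over the whole width and in 5 with 1 mismatch.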

Other observations

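TRNAU1AP, which binds the selenocysteine tRNA, was added after the values were seen. Its 3 windows gave log2 fold changes of -0.091, -0.051 and -0.17, and 0 of 3 was called by edgeR or DESeq2 or reached an unadjusted p of 0.05.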
